A study of Triticum aestivum with 9 samples.

Results

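PEAMT1, PIMT and SAHH are genes of methyl transfer in bread wheat (Triticum aestivum), and their transcript signals were followed through the filling of the grain. Members were all probe sets that the array's probe-to-gene table assigns to LOC543067 (PEAMT1), LOC543193 (PIMT, also named PCM) and SAHH (also named SH6.2). These are 3 of the 771 genes in that table, read by 4 of the array's 61290 probe sets. PEAMT1 is read by Ta.1842.1.S1_a_at, PIMT by Ta.162.1.S1_at and SAHH by Ta.1258.1.S1_a_at and Ta.1258.2.S1_x_at. PEAMT1 and PIMT had been chosen by their log2 changes in both comparisons with P1, and SAHH was added with its signals in all phases known, so the values of all 3 genes are given as a description and without p-values.

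Whole grains of the field-grown cultivar Jimai 20 were harvested at P1, 11 days post-anthesis, P2, 15 days, and P3, 20 days, with no other treatment. Each phase had 3 biological replicates from field plots and 1 Affymetrix wheat array per replicate, 9 arrays in all. The values are linear signal intensities, and each array's background was taken as the 95th percentile of its 64 reporter probe sets, designed to sequences that wheat lacks. Where nothing else is said, an error is the standard deviation over 3 arrays.

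As background, most methyl transfer in cells draws on S-adenosylmethionine. Each transfer leaves S-adenosylhomocysteine, which inhibits many methyltransferases until S-adenosylhomocysteine hydrolase, the product of SAHH, splits it into adenosine and homocysteine. Phosphoethanolamine N-methyltransferase, the product of PEAMT1, methylates phosphoethanolamine stepwise on the way to phosphocholine, a precursor of membrane phosphatidylcholine and of choline, from which glycine betaine is made. Protein L-isoaspartate O-methyltransferase, the product of PIMT, methylates isoaspartyl residues, which form from aspartyl and asparaginyl residues of ageing proteins, and so starts their repair. In Arabidopsis the enzyme is known for a role in seed vigour and longevity, and the wheat gene is known to respond to abscisic acid.

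PEAMT1 and PIMT were dim at 11 days and several times brighter at 15 and 20 days, whereas SAHH was bright at 11 and 15 days and dimmer at 20 days. In the deposited signals the difference in PEAMT1 and PIMT lay between 11 and 15 days. Their calls for P2 against P1 were lost, however, with the 3-prime to 5-prime ratio of the poly-A controls, transcripts spiked into the RNA before labelling, as a covariate. That ratio was lower on every P2 array than on any other array, so its part can hardly be told apart from that of phase P2. The difference in SAHH lay between 15 and 20 days in the deposited signals. It was larger with that covariate and turned its sign when arrays were scaled to the poly-A controls.

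PEAMT1 had signals of 127, 164 and 206 on the P1 arrays, 1335, 1150 and 1060 on the P2 arrays and 931, 1001 and 1106 on the P3 arrays. Every array of P2 and P3 was above every array of P1, while P2 and P3 overlapped. The phase means were thus 165 ± 39.6 (P1), 1180 ± 140 (P2) and 1010 ± 87.9 (P3). Signals were 1.22 to 2.3 times the array's background at P1, 7.15 to 12.9 times at P2 and 8.32 to 11.1 times at P3, so the transcript was above background on all 9 arrays but near it at P1. The log2 change was 2.86 for P2 against P1 (limma standard error, SE, 0.17), or 7.25-fold, and 2.64 for P3 against P1 (SE 0.17), or 6.22-fold. Of the 36669 probe sets that passed a filter on low signal, 0.971% had a higher change than PEAMT1 in P2 against P1, and 1.69% in P3 against P1. PEAMT1 had been chosen by these changes, so nothing is read from the shares.

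PIMT had signals of 165, 280 and 197 on the P1 arrays, 1043, 916 and 887 on the P2 arrays and 727, 784 and 918 on the P3 arrays. As for PEAMT1, P1 stood below both later phases with no overlap, and P2 and P3 overlapped. Its phase means were 214 ± 59.2 (P1), 949 ± 83.2 (P2) and 810 ± 97.9 (P3). At P1 the signals were 1.59 to 3.13 times background, and at P2 5.98 to 10.1 times. The log2 change of PIMT was 2.18 for P2 against P1 (SE 0.18), or 4.53-fold, and 1.95 for P3 against P1 (SE 0.18), or 3.86-fold. Higher changes than that of PIMT were seen in 1.84% of tested probe sets at P2, against P1, and in 3.24% at P3, against P1. Nothing is read from these shares either, since PIMT was chosen in the same way.

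Within phases the replicate spread of both genes relative to the mean was largest where they were dim, though the SD itself was smallest there. The coefficient of variation was 23.9% (P1), 11.9% (P2) and 8.68% (P3) for PEAMT1 and 27.7%, 8.77% and 12.1% for PIMT. The lowest array of P1 was replicate 1 for both genes, but the highest was replicate 3 for PEAMT1 and replicate 2 for PIMT. P2 replicate 1 and P3 replicate 3 were the highest arrays of their phases for both.

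**Figure D1:**
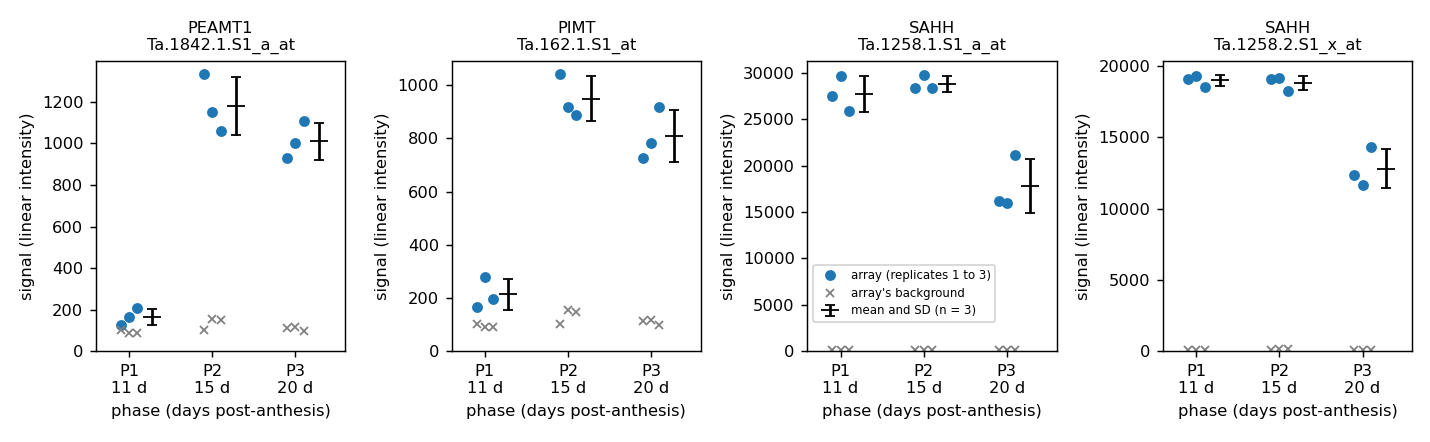
Signals of the 4 probe sets on each array (blue points, replicates 1 to 3 from left to right), with mean and SD (black, n = 3) and the background of each array (grey crosses), by phase, on linear axes that start at 0. PEAMT1 and PIMT lie at 280 or less on the P1 arrays and at 727 or more on all later ones, and both SAHH probe sets are lower on all P3 arrays than on any other.

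SAHH was bright in all phases. On Ta.1258.1.S1_a_at its signals were 27504, 29683 and 25843 on the P1 arrays, 28346, 29811 and 28321 on the P2 arrays and 16173, 16028 and 21139 on the P3 arrays. The P1 and P2 arrays overlapped, and each P3 array was below all 6 of them. The phase means were 27700 ± 1930 (P1), 28800 ± 853 (P2) and 17800 ± 2910 (P3). The log2 change of this probe set was 0.06 for P2 against P1 (SE 0.10), -0.65 for P3 against P1 (SE 0.10) and -0.71 for P3 against P2 (SE 0.10). SAHH was thus 1.57-fold lower at P3 than at P1 and 1.63-fold lower than at P2, both short of 2-fold. The log2 change for P3 against P2 turned to 0.30 (SE 0.11) with arrays scaled to the poly-A controls and was -1.5 (SE 0.42) with the poly-A ratio as a covariate, past 2-fold but not called.

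The second SAHH probe set, Ta.1258.2.S1_x_at, carries the suffix for probes that may also bind related sequences, and it is no independent replicate of the first. Its signals were 19111, 19316 and 18553 on the P1 arrays, 19080, 19171 and 18261 on the P2 arrays and 12373, 11636 and 14305 on the P3 arrays. Again P1 and P2 overlapped and P3 lay below both. Its log2 change was -0.01 for P2 against P1 (SE 0.08), -0.58 for P3 against P1 (SE 0.08) and -0.57 for P3 against P2 (SE 0.08). The last of these was 0.44 (SE 0.08) with poly-A scaling and -1.12 (SE 0.32) with the covariate, again not called. As deposited, the probe sets of SAHH thus differed by 0.07 on the log2 scale for P3 against P1 and by 0.14 for P3 against P2.

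At P3 the spread of SAHH came from replicate 3, the highest array of that phase for all 4 probe sets. The coefficient of variation of the first SAHH probe set was 16.4% at P3, against 6.96% at P1 and 2.96% at P2. Without P3 replicate 3 its log2 change was -0.78 for P3 against P1 and -0.84 for P3 against P2, and that of the second probe set was -0.66 and -0.65.

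For a call, limma's adjusted p over all 36669 tested probe sets had to be under 0.05 and the change at least 2-fold. All 4 members were among those tested. For P2 against P1, 2 of the 4 members, PEAMT1 and PIMT, were called higher, where 6.89% of all tested probe sets were called higher and 12.7% in either direction. With the poly-A ratio as a covariate neither was called in this comparison. For P3 against P1 the same 2 were called higher, where 8.36% of all were called higher and 13.1% in either direction. For P3 against P2, 0 of 4 were called, where 7.23% of all were called in either direction. Arrays of P2 and P1 did not overlap, with P2 higher, for 2 of the 4 members, as for 22.8% of all tested probe sets. Those of P3 and P1 did not overlap for 4 of 4, of which 2 were higher at P3, as were 26.5% of all, and 2 were lower, as were 21.2% of all. Since these comparisons had a part in the choice of the genes, nothing is read from the counts.

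Between 15 and 20 days PEAMT1 and PIMT showed nearly the same small difference. The log2 change for P3 against P2 was -0.22 (SE 0.17) for PEAMT1 and -0.23 (SE 0.18) for PIMT, each close to its SE. Both values turned positive, to 0.79 and 0.78, when arrays were scaled to the poly-A controls, and to 0.54 (SE 0.79) and 0.53 (SE 0.84) with the poly-A ratio as a covariate. In this comparison that scaling put the median of all tested probe sets at 1.073 on the log2 scale, against 0.066 as deposited. Arrays of P3 and P2 did not overlap, with P3 lower, for 2 of 4 members, both of SAHH, where 17.1% of all tested probe sets did so. The SAHH values also turned positive under that scaling, to 0.30 and 0.44. Relative to the median of all probe sets they were -0.77 and -0.63 as deposited, and -0.78 and -0.63 with the scaling. The scaling shifts all probe sets of an array alike and so cannot move values relative to the median, which are thus no check on it.

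**Figure D2:**
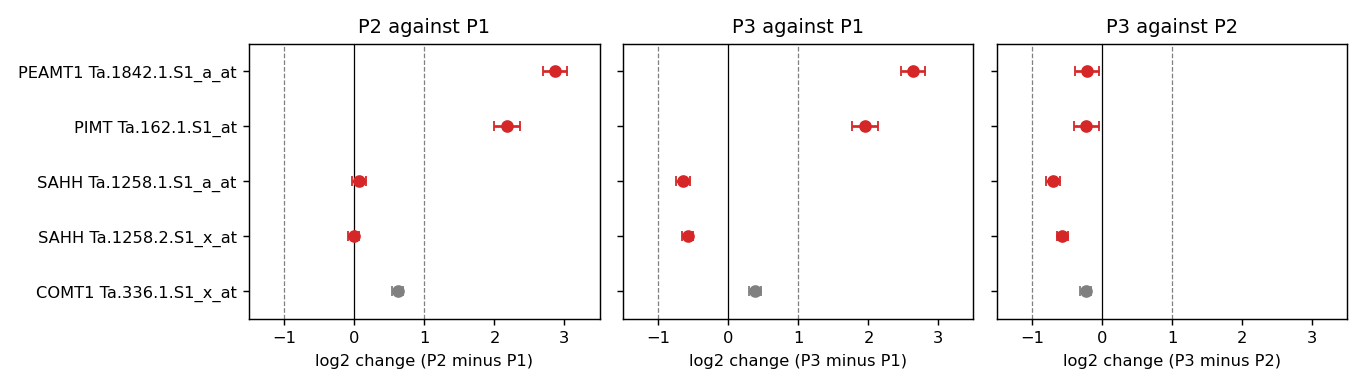
Log2 changes (points) with limma standard errors (bars) for the 4 probe sets (red) and COMT1 (grey) in the 3 comparisons, with dashed lines at 2-fold. PEAMT1 and PIMT lie between 1.95 and 2.86 in both comparisons with P1, and SAHH lies at -0.71 and -0.57 for P3 against P2, where scaling to the poly-A controls turns it to 0.30 and 0.44 and the poly-A ratio as a covariate gives -1.5 and -1.12.

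The P2 arrays differed from the others in the poly-A controls, and both comparisons with P2 rest on them. Over 12 pairs of poly-A control probe sets, the 3-prime signal exceeded the 5-prime signal by a mean log2 ratio of 2.06 ± 0.07 on P1 arrays, 1.47 ± 0.04 on P2 arrays and 2.05 ± 0.07 on P3 arrays (SD, n = 3 each). With that ratio as a covariate the log2 change for P2 against P1 was 2.08 for PEAMT1 (SE 0.80) and 1.40 for PIMT (SE 0.86), and neither was called. The ratio nearly coincides with phase P2, so this fit widens the errors of both comparisons with P2 and cannot separate phase from ratio. The covariate put SAHH at 0.87 (SE 0.42) and 0.56 (SE 0.32) for P2 against P1 on its first and second probe set. Scaling to the poly-A controls gave 1.98 for PEAMT1 (SE 0.16) and 1.30 for PIMT (SE 0.17) for P2 against P1, both still called. For P3 against P1, where the ratios were alike, both kept their call in all 20 alternatives, with log2 changes of 2.46 to 2.81 for PEAMT1 and 1.77 to 2.16 for PIMT. Several of these alternatives cannot move a log2 change.

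**Figure D3:**
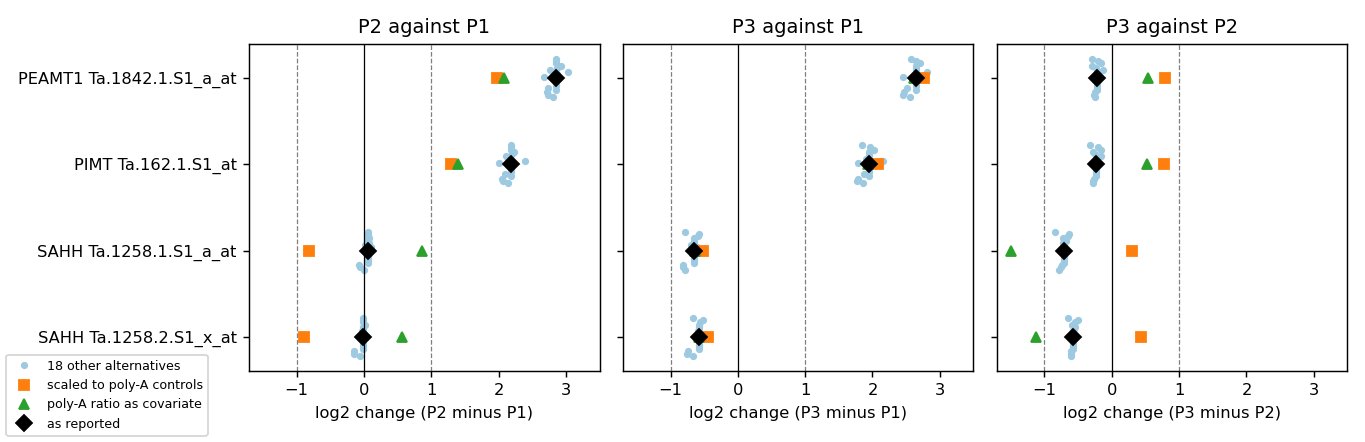
Log2 changes of the 4 probe sets as reported (black diamonds) and under 20 alternative settings, with dashed lines at 2-fold. For P3 against P1 all settings lie close together, while in both comparisons with P2 scaling to the poly-A controls (orange squares) and the poly-A ratio as a covariate (green triangles) stand away from the 18 other settings and in part cross 0.

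Profiles over the 9 arrays were compared by the root mean square difference of log2 signals, each centred on its own mean, as a description. PEAMT1 and PIMT differed by 0.38, and of 36668 other probe sets 72, or 0.196%, were closer to PEAMT1, where the median difference from PEAMT1 was 1.37. Both had been chosen by their changes against P1, which these profiles hold, so nothing is read from their closeness. The log2 changes of PEAMT1 exceeded those of PIMT by 0.68 in P2 against P1 and by 0.69 in P3 against P1, and the pair differed by 0.01 in P3 against P2. SAHH stood at 1.46 from PEAMT1 and 1.14 from PIMT on its first probe set, where the medians were 1.37 and 1.08. Of the other probe sets, 64.5% were closer to PEAMT1 and 60.0% were closer to PIMT, so SAHH lay near the middle. The probe sets of SAHH differed from each other by 0.08, and 3 others were closer to the first.

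Among 94 other genes with an informative name, each by its brightest tested probe set, PIMT, chosen by the same changes, was the closest to PEAMT1. Next came Serpin-Z2B (LOC543382), a protease inhibitor of the grain, and 6-FEH (LOC780575), a fructan exohydrolase, both at 0.47. PIMT was closest to 6-FEH (0.23), followed by ALMT1 (LOC543388, 0.35), a malate transporter, and Serpin-Z2B (0.37). For P3 against P2, 6-FEH had a log2 change of 0.00 and Serpin-Z2B one of 0.54, against -0.22 for PEAMT1 and -0.23 for PIMT. The ALMT1 probe set was dim, at 85.7 in P1, 230.0 in P2 and 223 in P3. SAHH was closest to rbcl (LOC100049018), the large subunit of rubisco, at 0.10, and then to the beta-tubulin gene tubb3 (LOC543473) and GSTZ1 (LOC543412), a glutathione transferase, both at 0.12.

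**Figure D4:**
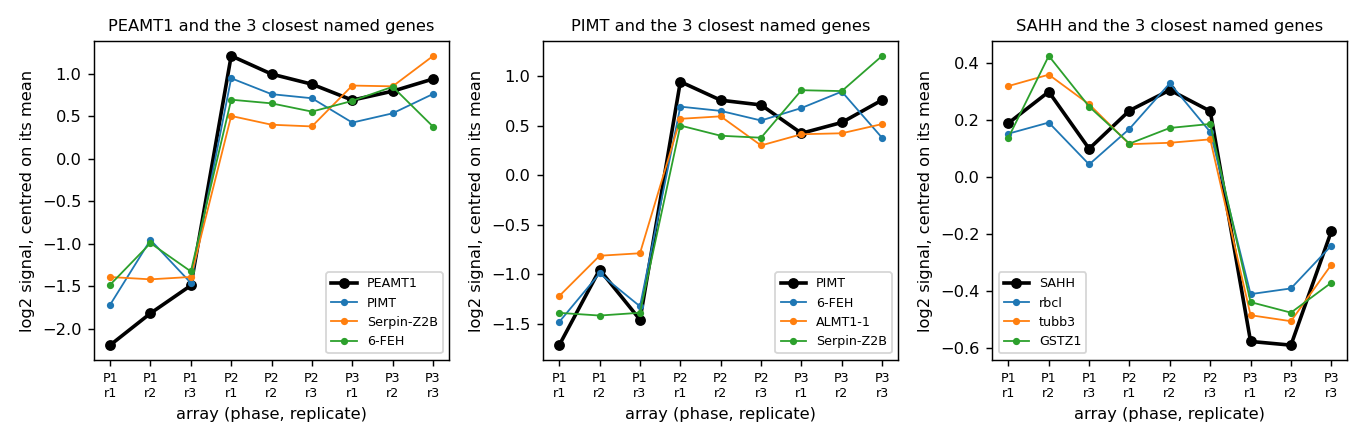
Centred log2 signals on the 9 arrays for PEAMT1, PIMT and the first SAHH probe set (black) with the 3 named genes closest to each. PEAMT1 and PIMT step up between the P1 and P2 arrays together with Serpin-Z2B and 6-FEH, and SAHH steps down between the P2 and P3 arrays together with rbcl, tubb3 and GSTZ1, in the deposited signals (scaling to the poly-A controls turns the log2 change of SAHH to 0.30).

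Other genes that make, use or recycle S-adenosylmethionine, or that handle choline and one-carbon units, were sought by name. The annotation held 1 of them, COMT1 (LOC543449), a caffeic acid O-methyltransferase known for lignin synthesis, read by Ta.336.1.S1_x_at. Its suffix, too, marks probes that may also bind related sequences. COMT1 had signals of 17674, 19255 and 18675 on the P1 arrays, 25920, 28011 and 31744 on the P2 arrays and 24741, 24535 and 23154 on the P3 arrays. P2 was the highest phase and P1 the lowest, with no overlap between any of the phases. Of all tested probe sets, 22.8% were higher without overlap at P2 than at P1 and 26.5% at P3 than at P1. The share lower without overlap at P3 than at P2 was 17.1%. Its log2 change was 0.62 for P2 against P1 (SE 0.08, limma adjusted p = 6.94e-05), 0.38 for P3 against P1 (SE 0.08, adjusted p = 0.00233) and -0.24 for P3 against P2 (SE 0.08, adjusted p = 0.0449). It was under 2-fold in each and so 0 of 1 passed both criteria, where the medians over all tested probe sets were 0.013, 0.067 and 0.066. With the poly-A ratio as a covariate its log2 change was 0.26 for P2 against P1 (SE 0.36) and 0.11 for P3 against P2 (SE 0.36), each under 1 SE from 0. With poly-A scaling it was -0.26 for P2 against P1, where the median of all tested probe sets was -0.867, and 0.77 for P3 against P2, where the median was 1.073. Relative to the median, COMT1 was at 0.61 and -0.30 in these comparisons, both as deposited and with that scaling. The scaling cannot move such values, since it shifts all probe sets of an array alike.

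Whole grain mixes tissues, and in such samples a change in the share of cells of a type cannot be told apart from a change in RNA per cell. All 4 endosperm markers (alpha-gliadin, low-molecular-weight glutenin, GBSS-I and AGP-S) were far above background on every array. Their summed signal lay at 137493 to 150457 (P1), 143749 to 156869 (P2) and 135421 to 178208 (P3). The sum hides markers that went different ways. For P3 against P2 the log2 change of low-molecular-weight glutenin was 0.64. Those of alpha-gliadin, AGP-S and GBSS-I were -0.14, -0.22 and -0.39, and each of these changes was short of 2-fold. With poly-A scaling 2 of 4 endosperm markers were called lower for P2 against P1, where 13671 of 36669 tested probe sets were. For P3 against P2, 1 of 4 was then called higher, where 18736 of 36669 were. The summed signal of 4 embryo and aleurone markers (EM, EMH2, Rab15 and WGA2) lay at 497 to 838 (P1), 17983 to 19400 (P2) and 107401 to 129739 (P3). All 4 were called higher in each of the 3 comparisons (for P3 against P2, 4.46% of all tested probe sets were). With the poly-A ratio as a covariate 1 of 4 was called higher for P3 against P2. In that comparison 3 of 4 were called higher without the intensity trend, and also when any 1 array of P2 or P3 was left out. The 3 markers EM, EMH2 and WGA2 were below background on all P1 arrays. In the deposited signals PEAMT1 and PIMT were higher together with these markers at P2 than at P1. Both genes were not higher at P3 than at P2, where the marker sum was again higher. For P3 against P2 their log2 changes turned to 0.79 and 0.78 with poly-A scaling. With the covariate they were 0.54 and 0.53, each smaller than its SE, and neither gene was called for P2 against P1. The summed signal of 3 markers of the green pericarp (PsbO, PsbP and PRK) lay at 20642 to 21359 (P1), 12713 to 14422 (P2) and 5265 to 5784 (P3). In the deposited signals SAHH was lower at P3 as these were, while at P2 its signals overlapped those of P1 and the pericarp sum lay below that of P1. With poly-A scaling the SAHH probe sets were at -0.82 and -0.89 for P2 against P1 and at 0.30 and 0.44 for P3 against P2. All 3 pericarp markers were then called lower for P2 against P1, where 13671 of 36669 tested probe sets were. For P3 against P2, 0 of 3 were then called lower, where 191 of 36669 were. No marker was at 0. The part of these tissues in the changes of PEAMT1, PIMT and SAHH was not tested.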

How the data were processed

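Total RNA from whole grains was hybridized as biotin-labelled cRNA to Affymetrix wheat arrays, per the labels' protocols. The authors deposited linear signal intensities, made with MAS5 per the submitters' processing notes (version not given in the sources used here). With 2% trimmed at each end, every array's deposited intensities averaged 500.1. No further normalization was applied. The 3 arrays per phase limit the precision.

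Phases and replicate numbers came from the sample titles. After 175 control probe sets were left out, the lowest 40% by mean log2 signal were dropped, which left 36669 with a geometric mean above 44.8. Log2 signals (pseudocount 0) were fitted with limma 3.58.1 in R 4.3.3, with phase as factor, all 9 arrays and an intensity trend, and adjusted by Benjamini-Hochberg. The procedure was tested on simulated data. The platform table names 1273 probe sets of 771 genes, 770 of them matched by gene ID to RefSeq (IWGSC CS RefSeq v2.1), used for names only. An informative name was found for 200 probe sets of 102 genes. Wheat is hexaploid, so a probe set can bind transcripts of related copies.

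The members and lists were chosen with earlier results of these data known. Every member was named. Of the list, each gene with a call and the brightest 3 without one were to be named, and for likeness the 3 closest informatively named genes. Protein and promoter sequences were not used here. Alternatives changed the scaling, the treatment of dim signals, the pseudocount (16), the filter, the variance trend, a covariate, the replicate block and the arrays in the fit. The labels do not say that replicate numbers pair plots across phases, so the numbers were not taken as pairs. Deviations from phase means correlated at -0.045 to 0.032 over 9 pairs of same-numbered arrays, and at -0.042 to 0.059 over 18 differently numbered pairs.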

Additional observations from a re-analysis of the deposited data

How the results depend on the processing

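Over 12 changes (4 probe sets in 3 comparisons) and 20 alternatives each, 226 of 240 values kept their direction and their side of the criteria. Several alternatives cannot move a log2 change, only its error or adjusted p, so this share is no measure of robustness. They are the filter, the variance trend, the replicate block, a fit of only the phases compared and an array left out of the phase not compared. With the poly-A ratio as a covariate 0 of 4 members were called for P2 against P1, since the log2 changes of PEAMT1 and PIMT there were 2.08 and 1.40 with wider errors, and for P3 against P2 these genes turned to 0.54 and 0.53. With it the SAHH probe sets were at 0.87 and 0.56 (P2 against P1) and at -1.5 and -1.12 (P3 against P2). Scaling to the poly-A controls gave 0.79 for PEAMT1, 0.78 for PIMT and 0.30 and 0.44 for SAHH for P3 against P2. The first SAHH probe set, at 0.06 for P2 against P1, was at -0.06 under median scaling, -0.07 with arrays scaled to the hybridization controls and -0.82 with poly-A scaling. The second, at -0.01, was at -0.89 with poly-A scaling and ranged from -0.03 to 0.01 when 1 array at a time was left out. COMT1 was at -0.26 (P2 against P1) and 0.77 (P3 against P2) with poly-A scaling, which shifted all probe sets alike, and at 0.26 and 0.11 with the covariate. Over all tested probe sets, calls for P2 against P1 numbered 4652 as reported, 14423 with poly-A scaling and 924 with the covariate, and for P3 against P2 2650, 18927 and 245. Rises made up 54.3% of calls for P2 against P1, 50.5% after quantile normalization, 42.5% with median, 41.7% with hybridization control and 5.2% with poly-A scaling, and 63.7%, 55.4%, 48.0%, 48.6% and 74.0% for P3 against P1. For P3 against P2 they made up 61.7%, 54.0%, 55.5%, 57.0% and 99.0%, and 38.8% with the covariate. The replicate block gave 4773 calls for P3 against P1, 4574 in P2 against P1 and 2597 in P3 against P2, and changed no call of the 4 members. PEAMT1 at P1 was as low as 1.22 times background, so its fold changes rest on values near the floor of the array. The cause of these differences was not tested.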

Other observations

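An unnamed probe set, Ta.1842.2.S1_at, shares the leading number of its ID with the PEAMT1 probe set and was singled out after its values were seen. The platform table used here pairs it with no gene. Its signal averaged 29200 ± 2680 on the P1 arrays, 28200 ± 892 on the P2 arrays and 24000 ± 436 on the P3 arrays (SD, n = 3), and its log2 change was -0.05 for P2 against P1 (SE 0.07) and -0.28 for P3 against P1 (SE 0.07), whereas the PEAMT1 probe set was at 2.86 and 2.64. Whether both read transcripts of PEAMT1 copies was not tested.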
